A study of Mus musculus with 9 samples.

Results

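The genes described here were 42 that code for peroxins and for peroxisomal lipid enzymes and transporters. They were chosen by symbol for their functions in the peroxisome, with earlier results of these data known. All 42 were found among the 28965 genes of the deposited table. RNA was measured in 3T3-L1, a wild-type mouse line of adipocyte precursors, as 9 poly(A) libraries in 3 groups of 3. All cells were grown to confluence, left for 2 days and then held for 24 h in an adipogenic cocktail of insulin at 0.1 µg/mL, isobutylmethylxanthine at 30 µg/mL and dexamethasone at 0.1 µg/mL. MDI cells received bovine serum albumin as vehicle. OA cells received 100 µM oleic acid on the same carrier, and OA_T0 cells received that dose together with 5 µM T0901317, a synthetic ligand that activates liver X receptors (LXR). There was no group with T0901317 and without oleic acid, and no group without the cocktail. The labels do not say whether the libraries of a group came from separate cultures, so the p-values measure the spread between these libraries, which may be technical.

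Peroxisomes are organelles that shorten fatty acids by beta-oxidation and act on the branched phytanic acid by alpha-oxidation. They also start the synthesis of ether lipids and destroy the hydrogen peroxide their oxidases make. Peroxins import their enzymes from the cytosol, insert their membrane proteins and divide them. Several genes of peroxisomal oxidation are known targets of the peroxisome proliferator-activated receptors (PPAR), which fatty acids can activate, and peroxisomes become more abundant as adipocytes mature.

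The estimated depth was 17978309 to 59887568 fragments per library, and 3 fragments, taken as the floor of detection, corresponded to 1.35 to 4.62 deposited units. A ribosomal RNA gene held 4.40% to 5.96% of the deposited total in 7 libraries, but 0.649% in OA replicate 1 and 3.06% in OA_T0 replicate 3. Of 9 preadipocyte and fibroblast markers 9 were present. Their summed values were 227833 to 262509 in MDI, 251374 to 280644 in OA and 229544 to 274180 in OA_T0. Single markers moved in opposite directions within this sum. Pdgfra averaged 13276 in MDI, 18401 in OA and 11816 in OA_T0, and Dlk1 averaged 37585, 35777 and 43502. Of 8 adipocyte markers 7 were found and 1, Fabp4, a fatty acid carrier, averaged at least 10. The adipocyte markers summed to 304 to 463 in MDI, 1843 to 2393 in OA and 602 to 750.0 in OA_T0, Adipoq reached at most 6.76 and Cfd and Slc2a4 were under the floor in every library. Fabp4 made up most of this sum, with means of 374 in MDI, 2024 in OA and 661 in OA_T0. It was higher in OA than in both other groups, as were the peroxisomal genes that rose in OA. Its part in those results was not tested. The other adipocyte markers averaged below 10 and did not move together: in the same order Adipoq averaged 3.67, 1.15 and 1.70, and Plin1 0.83, 5.03 and 1.87. In bulk RNA, more cells of a type and more RNA per cell cannot be told apart. Markers of other cell types summed to 75.6 to 120.8, of which Des and Cd68 made up most and Adgre1, Alb and Sox10 were under the floor.

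A small set of these genes was higher with oleic acid and lower again when T0901317 was added. Pex11a, which elongates and divides peroxisomes, and Ech1 and Eci2, isomerases that let unsaturated fatty acids enter beta-oxidation, were 1.78-fold to 2.23-fold higher in OA than in MDI. Catalase (Cat), Crot and Pxmp4 rose by 1.21-fold to 1.45-fold. The import machinery, the core beta-oxidation enzymes and the alpha-oxidation enzymes gave 0 calls by limma in that comparison. Of all tested genes 6.79% were called there, and at that share classes of so few genes can give 0 calls. Pex13 and Acox3, and Pex19 among the membrane insertion factors, had an unadjusted p below 0.05. Values below are deposited normalised counts, which can be compared between libraries for 1 gene but not between genes. Fold changes are on the scale of log2(value + 1), which understates the change of low genes.

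Of the 42 members, 40 averaged at least 10 over the 9 libraries and were tested. Ehhadh, the bifunctional enzyme of straight-chain beta-oxidation, stood at 0 to 1.01 in every library, below the floor. Acaa1b, a thiolase, stood at 1.1 to 5.17, near the floor, while its near-identical copy Acaa1a stood at 823 to 972, and reads shared between them cannot be separated in these values. A gene was called at an adjusted p below 0.05 by limma, with Benjamini-Hochberg adjustment over all 15002 tested genes.

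In OA vs MDI, which asks what the fatty acid adds to the cocktail, 6 of 40 members (15%) were called higher, where 3.43% of all tested genes were (6.79% in either direction). None of the 40 was called lower, where 3.36% of all genes were, and at an unadjusted p below 0.05 there were 13 higher and 0 lower, beside 1672 and 1511 of all genes. The median log2 fold change of the 40 members was 0.11, beside 0.014 for all tested genes, and 35 of 40 (87.5%) lay above zero, as did 53.3% of all genes. For 11 of 40 members (27.5%) every OA library lay above every MDI library, as for 13.4% of all genes, and for 0 members every OA library lay below, as for 12.6%. In OA_T0 vs OA, which asks what the agonist changes in cells given the fatty acid, 9 of 40 members (22.5%) were called lower, where 6.84% of all genes were (15.1% in either direction). In the same comparison 0 members were called higher by limma, where 8.27% of all genes were, and at an unadjusted p below 0.05 there were 3 higher and 10 lower, beside 2344 and 2145 of all genes. For 10 of 40 members (25%) OA_T0 lay below OA without overlap, and for 6 (15%) above it, beside 15% and 17.1% of all genes. The median there was -0.031, beside -0.0023 for all genes. In OA_T0 vs MDI, 1 of 40 members (2.5%) was called higher, where 1.25% of all genes were (2.61% in either direction), and 0 lower, where 1.36% were. At an unadjusted p below 0.05, 9 members were higher and 0 lower, beside 1596 and 1180 of the 15002 genes. There 12 of 40 members (30%) lay above MDI without overlap, as did 13.3% of all genes, and 0 lay below, as did 10.2%. The member median in OA_T0 vs MDI was 0.082, beside 0.019 for all genes. Of the 40 members, 30 (75%) lay above zero, as did 54.4% of all genes. The first pair of comparisons share the OA libraries, with opposite sign, so a gene that was high in OA by chance would appear in each.

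**Figure D1:**
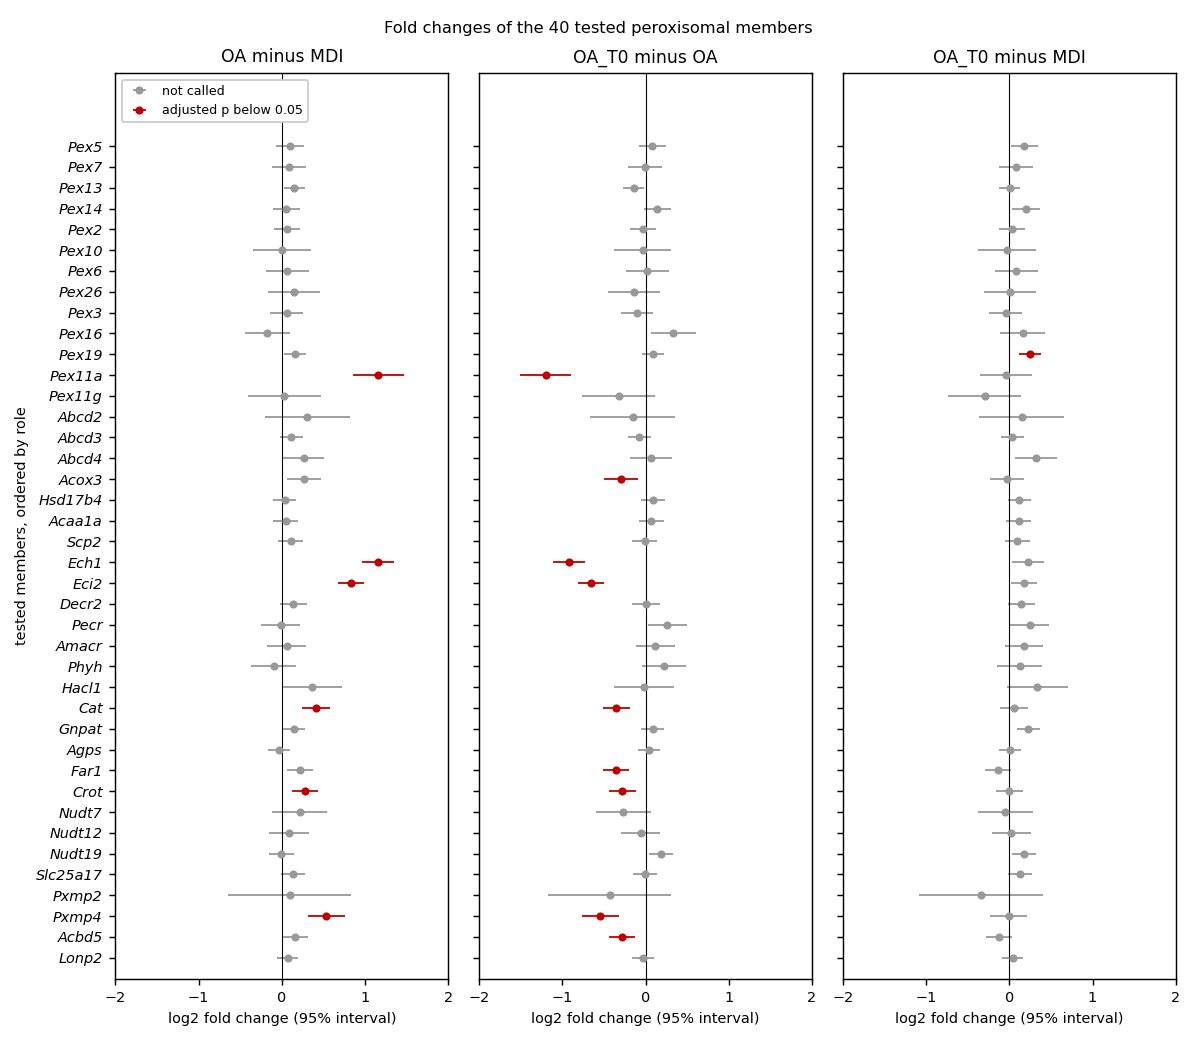
Log2 fold changes of the 40 tested members with 95% intervals in the 3 comparisons, ordered by role from import receptors at the top to membrane and matrix proteins at the bottom; red marks an adjusted p below 0.05. In OA minus MDI 6 members are red and to the right of zero, in OA_T0 minus OA 9 are red and to the left, and in OA_T0 minus MDI only Pex19 is red.

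The promoters of the members were also described, without a test. Promoter sequences from RefSeq (build GRCm38.p6; 250 bases before to 50 after each annotated start) were found by symbol for 34 of the 42 members, as 41 promoters. Each was searched on both strands for a direct repeat of AGGNCA spaced by 1 base, the spacing that PPAR dimers bind, and for the same repeat spaced by 4 bases, which LXR dimers bind. Neither was found in the 41 promoters. Only 0.381% and 0.253% of the 32851 promoters in the table held them, so 0 matches among 41 does not set the members apart. The core element AGGTCA alone, searched after the values were seen, occurred in 4 of 41 promoters (9.76%) and in 16.3% of all, and the repeats contain related elements. Cat was the only member with a call in OA vs MDI or OA_T0 vs OA whose promoter held it. The CCAAT box, also searched later, occurred in 16 of 41 promoters (39.0%) and in 37.4% of all. No match says only that these letters are absent from this window. The 250 bases before the start are shown for the 3 genes with the largest rise in OA and for Cat; capitals mark AGGTCA and CCAAT on either strand, and a sequence without capitals holds neither.

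Pex11a, chr7:79743132-79743381, minus strand: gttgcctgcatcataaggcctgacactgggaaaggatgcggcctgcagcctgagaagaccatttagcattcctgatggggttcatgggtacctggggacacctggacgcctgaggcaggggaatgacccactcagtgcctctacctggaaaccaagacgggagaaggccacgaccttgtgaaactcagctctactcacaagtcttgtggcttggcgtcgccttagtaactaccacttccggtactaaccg
Ech1, chr7:28825088-28825337, plus strand: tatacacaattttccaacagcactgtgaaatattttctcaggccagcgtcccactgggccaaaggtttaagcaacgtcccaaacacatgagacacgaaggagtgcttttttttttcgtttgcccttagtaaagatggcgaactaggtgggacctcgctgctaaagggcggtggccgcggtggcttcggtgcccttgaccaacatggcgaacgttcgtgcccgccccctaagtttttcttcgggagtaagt
Eci2, chr13:34994145-34994394, minus strand: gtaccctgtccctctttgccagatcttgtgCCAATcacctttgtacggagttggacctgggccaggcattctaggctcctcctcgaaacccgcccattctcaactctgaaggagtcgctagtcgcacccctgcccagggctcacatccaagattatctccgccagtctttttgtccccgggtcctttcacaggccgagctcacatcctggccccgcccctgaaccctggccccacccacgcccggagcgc
Cat, chr2:103485154-103485403, minus strand: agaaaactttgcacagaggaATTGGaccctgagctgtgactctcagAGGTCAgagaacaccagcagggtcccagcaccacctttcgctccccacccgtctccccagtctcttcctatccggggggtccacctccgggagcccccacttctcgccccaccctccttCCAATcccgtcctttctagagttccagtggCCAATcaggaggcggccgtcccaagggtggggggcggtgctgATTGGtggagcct

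The Pex11a and Ech1 windows held neither element, Eci2 held 1 CCAAT box, and Cat held 4 CCAAT boxes and 1 AGGTCA. The bases GC made up 55.6%, 51.2%, 61.2% and 62% of these windows in the order shown.

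Pex5 and Pex7 are the receptors that carry matrix enzymes to the peroxisome, by a C-terminal and an N-terminal signal respectively. Pex5 stood at 1279.5, 1351 and 1435 in MDI, 1406, 1418 and 1527 in OA, and 1586, 1663 and 1367 in OA_T0. These ranges overlapped in every comparison, with log2 fold changes of 0.10 in OA vs MDI (adjusted p = 0.519) and 0.081 in OA_T0 vs OA (adjusted p = 0.514). Pex7 stood at 335 to 407 over the 9 libraries and was not called.

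Pex13 and Pex14 form the dock for the loaded receptor. Pex14 was measured at 829.7, 867 and 856 in MDI, 860.1, 824 and 975 in OA, and 1035, 900.4 and 997 in OA_T0. All OA_T0 libraries lay above all MDI libraries, but the comparison was not called (log2 fold change 0.20, adjusted p = 0.197), and the OA libraries overlapped the others. Pex13 averaged 1342 ± 47.9 in MDI, 1487 ± 57.4 in OA and 1346 ± 28 in OA_T0 (SD, n = 3). Its OA libraries lay above those of the other groups without overlap, with adjusted p = 0.165 against MDI and 0.123 for OA_T0 vs OA. Under quantile normalisation Pex13 passed in OA_T0 vs OA (log2 fold change -0.17, adjusted p = 0.0474).

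Pex2 and Pex10 are ubiquitin ligases that mark the receptor for recycling, and Pex6 and its anchor Pex26 extract it from the membrane. None of these 4 was called in any comparison, and their log2 fold changes lay between -0.14 and 0.15. Pex3, Pex16 and Pex19 insert peroxisomal membrane proteins. Pex19, the chaperone of these proteins, stood at 1279.5, 1286 and 1411 in MDI, 1413, 1495 and 1534 in OA, and 1547, 1594 and 1578 in OA_T0. Its groups did not overlap and were ordered MDI, OA, OA_T0. The call for OA_T0 vs MDI (log2 fold change 0.25, SE 0.062, adjusted p = 0.0476) was the only one among the members in that comparison and was lost under 13 of 19 alternatives. Its adjusted p was 0.178 without MDI replicate 1 and 0.192 with MDI replicate 2 dropped instead. Dropping an OA library gave 0.0663 for OA replicate 1 and 0.0575 for OA replicate 2, and dropping OA_T0 replicate 1, replicate 2 or replicate 3 gave 0.163, 0.0949 and 0.0874. Pex16 averaged 195 ± 31.3 in OA and 244 ± 15.8 in OA_T0 without overlap; it did not pass (adjusted p = 0.0903) but did without OA replicate 3 (adjusted p = 0.0364). Pex3 was not called.

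Pex11a and Pex11g belong to the PEX11 family, which bends and elongates the peroxisomal membrane before division. Pex11a stood at 148, 159 and 158 in MDI, 327, 372 and 344 in OA, and 120.0, 149.8 and 189.5 in OA_T0. All OA libraries lay above every other library, and the MDI and OA_T0 ranges overlapped. The gene rose 2.23-fold with oleic acid (log2 fold change 1.16, SE 0.15, adjusted p = 1.83e-04) and was 2.3-fold lower with T0901317 added (log2 fold change -1.20, SE 0.15, adjusted p = 5.66e-05). OA_T0 and MDI were not called different, with a 95% interval of -0.35 to 0.27 for the log2 difference. OA_T0 varied most, with its highest value in replicate 3, the shallowest library.

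Pex11g stood at 84.2, 85.1 and 74.4 in MDI, 92, 75.3 and 81.5 in OA, and 76.6, 79.4 and 46.9 in OA_T0, and no comparison was called. Its MDI and OA ranges overlapped, and only OA_T0 replicate 3 lay clearly lower. To compare these family members directly, the log2 ratio of Pex11a to Pex11g was taken within each library. It averaged 0.92 ± 0.14 in MDI, 2.06 ± 0.24 in OA and 1.18 ± 0.72 in OA_T0 (SD, n = 3). Each OA ratio lay above each MDI ratio (two-sided exact permutation p = 0.1, the smallest that 3 against 3 allows). Pex11a had already been called and Pex11g hardly differed between MDI and OA. The ratio therefore restates the rise of Pex11a and is not separate support for it. In OA_T0, replicate 3 reached 1.99 and overlapped OA (exact permutation p = 0.2). Pex11g was at its lowest in that library, at 46.9.

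**Figure D2:**
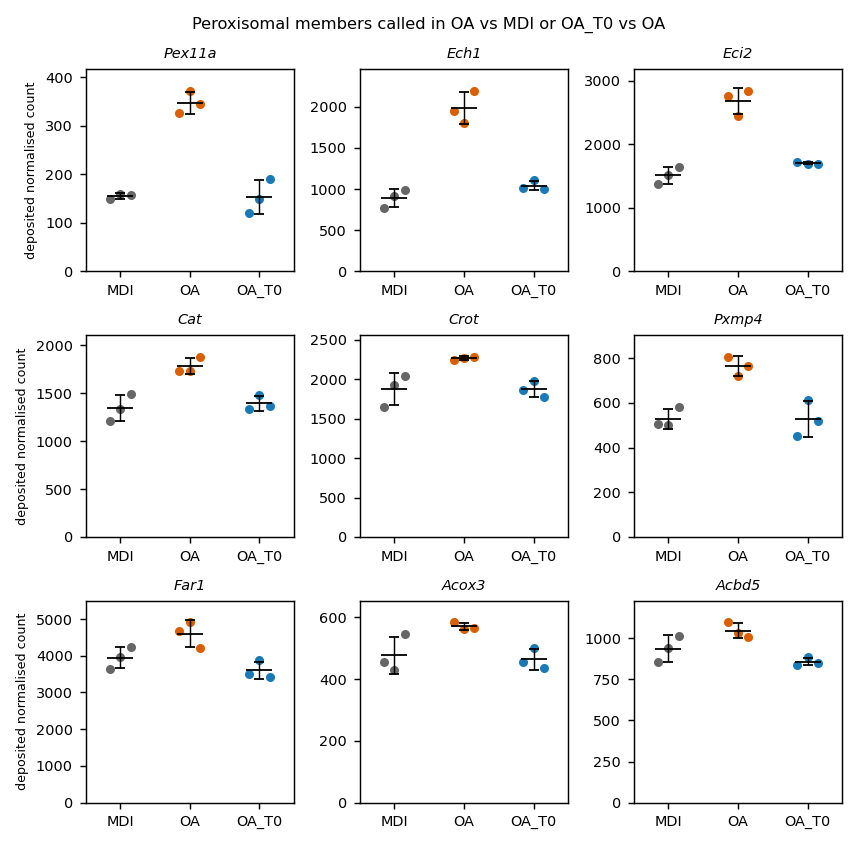
Deposited normalised counts of the 9 members called in OA vs MDI or OA_T0 vs OA; each point is 1 library, the horizontal mark the mean and the bar 1 SD (n = 3), and each axis starts at 0. For Pex11a, Ech1, Eci2, Cat, Crot and Pxmp4 the 3 OA libraries sit above all MDI and OA_T0 libraries.

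The transporters of the D family of ABC proteins pass acyl-CoA into the peroxisome; Abcd4 is now known as a lysosomal carrier of cobalamin. Abcd3 stood at 2263, 2474 and 2612 in MDI, 2596, 2691 and 2637 in OA, and 2548, 2631 and 2351 in OA_T0. Its ranges overlapped, and no comparison was called (adjusted p = 0.354, 0.469 and 0.803 for OA vs MDI, OA_T0 vs OA and OA_T0 vs MDI). Abcd2 averaged 55.4 ± 7.62, 68.8 ± 11.4 and 63.5 ± 19.4 in MDI, OA and OA_T0, and its 95% interval for OA vs MDI reached from -0.21 to 0.81. Abcd4 averaged 207 ± 25.4, 247 ± 17.6 and 258 ± 17 in the same order and was not called.

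Of the core beta-oxidation enzymes, Acox3, an oxidase of branched acyl-CoA, Hsd17b4, the multifunctional enzyme for branched and very long chains, the thiolase Acaa1a and the thiolase and lipid carrier Scp2 could be tested. Hsd17b4 stood at 1194, 1322 and 1366 in MDI, 1256, 1329.6 and 1385 in OA, and 1403, 1411 and 1404 in OA_T0. MDI and OA overlapped, and the OA_T0 libraries lay above the rest without a call (log2 fold change 0.12 in OA_T0 vs MDI, adjusted p = 0.339). For Acaa1a and Scp2 the log2 fold changes lay between -0.01 and 0.11 in the 3 comparisons. Acox3, the weakest call in OA_T0 vs OA, stood at 456, 428 and 545 in MDI, 584, 562 and 566 in OA, and 454, 502 and 436 in OA_T0. Its OA libraries lay above both other groups, without a call against MDI (adjusted p = 0.117, or 0.0279 without MDI replicate 3) and with one in OA_T0 vs OA (log2 fold change -0.30, SE 0.10, adjusted p = 0.0472). That call was lost under 10 of 19 alternatives, among them leaving out any 1 library except MDI replicate 3 or OA_T0 replicate 2. With 1 library left out the adjusted p reached 0.151, without OA_T0 replicate 1. Without both OA replicate 1 and OA_T0 replicate 3 it was 0.293.

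The auxiliary enzymes prepare acyl-CoA whose bonds or branches block the spiral. Ech1, a dienoyl-CoA isomerase found in peroxisomes and mitochondria, stood at 775, 919 and 984 in MDI, 1944, 1806 and 2192 in OA, and 1015, 1108 and 1000.0 in OA_T0. OA was far above both other groups, and OA_T0 lay just above MDI. Ech1 rose 2.22-fold in OA vs MDI (log2 fold change 1.15, SE 0.091, adjusted p = 1.56e-06) and was 1.9-fold lower in OA_T0 than in OA (log2 fold change -0.92, SE 0.091, adjusted p = 7.81e-06). OA_T0 vs MDI gave a log2 fold change of 0.23 with a 95% interval of 0.033 to 0.42 and was not called after adjustment (adjusted p = 0.201).

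Eci2, an enoyl-CoA isomerase also found in both organelles, stood at 1374, 1518 and 1644 in MDI, 2766, 2445 and 2839 in OA, and 1716, 1694 and 1697 in OA_T0. It showed the same order of groups, MDI, OA_T0 and OA, without overlap. The rise in OA vs MDI was 1.78-fold (log2 fold change 0.83, SE 0.073, adjusted p = 5.02e-06), and OA_T0 was 1.57-fold below OA (log2 fold change -0.65, SE 0.073, adjusted p = 2.72e-05). Against MDI, OA_T0 was not called (log2 fold change 0.17, adjusted p = 0.222). The calls of Ech1, Eci2 and Pex11a in these comparisons were kept under all 19 alternatives.

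The other 3 auxiliary enzymes were not called. Decr2, a reductase for polyunsaturated acyl-CoA, Pecr, an enoyl-CoA reductase, and Amacr, a racemase for branched acyl-CoA, had log2 fold changes between -0.015 and 0.14 in OA vs MDI, with 0 calls. Pecr averaged 263 ± 19 in MDI, 261 ± 29.5 in OA and 312 ± 14.2 in OA_T0, the last above both others without overlap and without a call (adjusted p = 0.123 for OA_T0 vs OA).

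Phyh and Hacl1 carry out alpha-oxidation of phytanic acid, and Phyh, like Acaa1a and Agps, is imported through Pex7. Neither was called in any comparison. Phyh averaged 226 ± 36.9, 209 ± 15.4 and 244 ± 6.15 in MDI, OA and OA_T0, and Hacl1 73 ± 10.7, 93.6 ± 11 and 92 ± 5.16. At these levels the 95% interval of Hacl1 in OA vs MDI was -0.0035 to 0.72 on the log2 scale.

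Catalase breaks down hydrogen peroxide. Cat stood at 1212, 1337 and 1488 in MDI, 1734, 1735 and 1882 in OA, and 1339, 1486 and 1362 in OA_T0. The OA libraries lay above all others, while MDI and OA_T0 overlapped. It rose 1.33-fold in OA vs MDI (log2 fold change 0.41, SE 0.076, adjusted p = 0.00443) and was 1.28-fold lower in OA_T0 than in OA (log2 fold change -0.35, SE 0.076, adjusted p = 0.00595); each call was kept under all 19 alternatives.

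Gnpat and Agps make the ether bond of plasmalogens from dihydroxyacetone phosphate, and Far1 supplies the fatty alcohol and limits the rate. Gnpat stood at 1382, 1497 and 1532 in MDI, 1618, 1617 and 1635 in OA, and 1741, 1824 and 1602 in OA_T0. MDI lay below both other groups, which overlapped, and OA_T0 vs MDI was not called (log2 fold change 0.23, adjusted p = 0.081) except without OA_T0 replicate 3 (adjusted p = 0.0392). Agps was measured at 3320.5, 3691 and 3659 in MDI, 3557, 3598 and 3266 in OA, and 3651, 3640.5 and 3445 in OA_T0, with overlapping ranges and log2 fold changes of -0.034, 0.044 and 0.0099 in OA vs MDI, OA_T0 vs OA and OA_T0 vs MDI.

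Far1 stood at 3651, 3963 and 4241 in MDI, 4686, 4913 and 4199 in OA, and 3503, 3875 and 3434 in OA_T0. OA_T0 lay below OA without overlap, and MDI overlapped both. The fall in OA_T0 vs OA passed (log2 fold change -0.35, SE 0.073, adjusted p = 0.00474), and the value in OA vs MDI did not (log2 fold change 0.22, SE 0.073, adjusted p = 0.0917), although it did without MDI replicate 3 (adjusted p = 0.0493) or OA replicate 3 (adjusted p = 0.0433). The fall was lost only when OA replicate 1 and OA_T0 replicate 3 were left out together (adjusted p = 0.0634). Whether Far1 differed in its change from Gnpat or Agps was not tested.

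Crot passes shortened acyl groups to carnitine for export to mitochondria. It stood at 1647, 1930.0 and 2046 in MDI, 2237, 2274 and 2286 in OA, and 1868, 1973 and 1772 in OA_T0. The OA libraries agreed closely and lay above the others, while the MDI range covered OA_T0. Crot rose 1.21-fold in OA vs MDI (log2 fold change 0.28, SE 0.074, adjusted p = 0.0354) and was 1.21-fold lower in OA_T0 than in OA (log2 fold change -0.28, SE 0.074, adjusted p = 0.0212). The rise was lost under 8 of 19 alternatives. Its adjusted p became 0.146 and 0.0911 when MDI replicate 1 or MDI replicate 2 was dropped, 0.0908, 0.0842 and 0.0835 for the OA libraries in order, and 0.0576 for OA_T0 replicate 1. The fall was lost under 6: its adjusted p became 0.0615 and 0.0588 when OA replicate 1 or OA replicate 2 was dropped, and 0.0776 and 0.0692 for OA_T0 replicate 1 and replicate 3.

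Nudt7, Nudt12 and Nudt19 hydrolyse CoA or nucleotide cofactors, and Slc25a17 carries cofactors across the membrane. None was called in any comparison. Nudt19 averaged 881 ± 36.3 in MDI, 876 ± 28.7 in OA and 997 ± 62.4 in OA_T0, the last above both others without overlap. OA_T0 vs OA missed the threshold for Nudt19 (adjusted p = 0.0864), but with OA_T0 replicate 2 dropped the value was 0.0402.

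Pxmp4, a peroxisomal membrane protein, stood at 504, 500.5 and 581 in MDI, 808, 721 and 767 in OA, and 452, 614 and 519 in OA_T0. OA lay above both other groups, which overlapped. It rose 1.45-fold in OA vs MDI (log2 fold change 0.53, SE 0.10, adjusted p = 0.0063) and was 1.46-fold lower in OA_T0 than in OA (log2 fold change -0.54, SE 0.10, adjusted p = 0.00285), and each call was kept under all 19 alternatives. Acbd5, an acyl-CoA binding protein that tethers peroxisomes to the endoplasmic reticulum, stood at 855, 940.0 and 1017 in MDI, 1098, 1030.4 and 1009.5 in OA, and 839, 885 and 852 in OA_T0. OA_T0 lay below OA without overlap (log2 fold change -0.28, adjusted p = 0.0181), while OA and MDI overlapped (adjusted p = 0.226). The fall of Acbd5 was lost without OA replicate 1 (adjusted p = 0.0954) or OA_T0 replicate 1 (adjusted p = 0.0832). Lonp2, the matrix protease, and Pxmp2, a membrane channel, were not called; Pxmp2 stood at only 11.1 to 26.8.

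**Figure D3:**
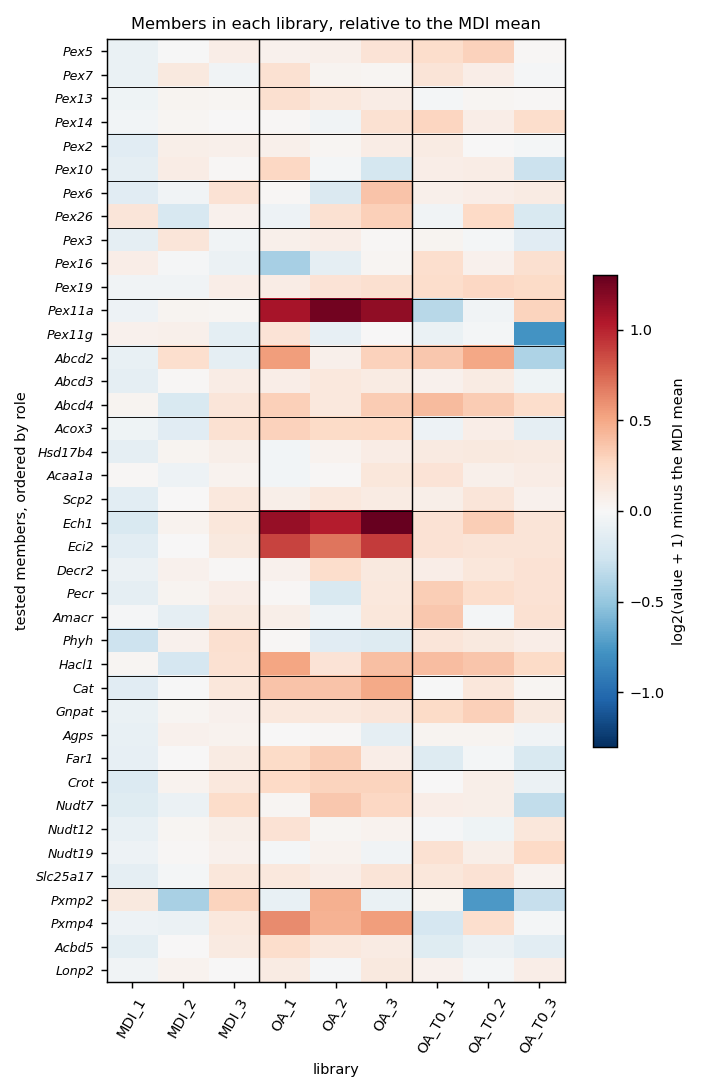
Each tested member in each library as log2(value + 1) minus the mean of the 3 MDI libraries; red is above and blue below that mean, vertical lines separate the groups and horizontal lines the roles. The rows of Pex11a, Ech1 and Eci2 are deep red in all OA libraries, and 33 of 40 members lie below the MDI mean in MDI replicate 1.

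The members also shared a small offset between libraries of the same group. In MDI replicate 1, the deepest library, 33 of 40 members lay below the MDI mean, as did 67.7% of all tested genes, with a median of -0.093 for members and -0.042 for all genes. In MDI replicate 3, 35 of 40 members lay above it, with medians of 0.084 and 0.034. In the OA libraries the member median lay at 0.099, 0.11 and 0.14, and in OA_T0 at 0.088, 0.085 and 0.052. The median offset of OA from MDI was thus close in size to the offset between single MDI libraries. Pex11a, Ech1 and Eci2 had the largest rise in OA, so they are not a like comparison for a median. In MDI they ran from 148 to 159, 775 to 984 and 1374 to 1644, and their lowest OA values were 327, 1806 and 2445.

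For members that were not called, the precision limits what can be said. In OA vs MDI, 31 of the 34 had a 95% interval inside a 1.5-fold change in either direction; Abcd2, Hacl1 and Pxmp2 did not. In OA_T0 vs OA it was 26 of 31, and Pex16, Pex11g, Abcd2, Nudt7 and Pxmp2 had wider intervals. In OA_T0 vs MDI it was 35 of 39, the exceptions being Pex11g, Abcd2, Hacl1 and Pxmp2.

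A second list of 42 other peroxisomal genes was compared with the members, of which 38 were found and 26 tested. Both lists were chosen with earlier results of these data known, so the second is not independent support for the first. In OA vs MDI limma called 5 of these 26 (19.2%) higher and 0 lower, beside 3.43% and 3.36% of all tested genes. At an unadjusted p below 0.05 there were 6 higher and 0 lower, beside 1672 and 1511 of the 15002 tested genes. In OA_T0 vs OA it called 0 higher and 4 (15.4%) lower, beside 8.27% and 6.84% of all genes. The unadjusted p was below 0.05 for 2 higher and 6 lower, beside 2344 and 2145 of all genes. In OA_T0 vs MDI it called 0, where 2.61% of all genes were called in either direction. There 2 were higher and 0 lower at an unadjusted p below 0.05, beside 1596 and 1180 of all genes. Their median log2 fold changes were 0.076, 0.041 and 0.084 in OA vs MDI, OA_T0 vs OA and OA_T0 vs MDI. For all tested genes the medians were 0.014, -0.0023 and 0.019 in the same order.

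The 4 genes called in both of the first comparisons were Ephx2, Mgst1, Idh1 and Hsdl2. Ephx2, soluble epoxide hydrolase, stood at 36.9, 30.5 and 51.8 in MDI, 106, 91.2 and 89.3 in OA, and 39.3, 46.2 and 33.9 in OA_T0, a 2.42-fold rise (adjusted p = 0.00328) that was 2.38-fold lower in OA_T0 (adjusted p = 0.00187). Mgst1, a membrane glutathione transferase found also in the endoplasmic reticulum and mitochondria, averaged 1697 ± 166, 3094 ± 142 and 1651 ± 191 in MDI, OA and OA_T0 (adjusted p = 1.51e-05 and 4.13e-06 for OA vs MDI and OA_T0 vs OA). Idh1, which makes NADPH in the cytosol and peroxisomes, averaged 4016 ± 439, 6305 ± 418 and 4371 ± 279.9 (adjusted p = 1.09e-04 and 3.49e-04). Hsdl2, a peroxisomal and mitochondrial dehydrogenase-like protein, averaged 340.2 ± 27.4, 497 ± 20.6 and 343 ± 35.2 (adjusted p = 0.00378 and 0.0021). In each of the 4 every OA library lay above every other library.

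Mpv17, now known mainly as a mitochondrial inner membrane protein, rose from 665 ± 62.4 to 814 ± 29.3 (adjusted p = 0.0364), and the call was lost under 9 of 19 alternatives, up to adjusted p = 0.156 without MDI replicate 1 and 0.155 for MDI replicate 2. The OA libraries in order gave 0.115, 0.0557 and 0.0978 for Mpv17, and OA_T0 replicate 1 gave 0.0578. The 9 tested genes of division, contact sites and quality control gave 0 calls by limma in the 3 comparisons. Of all tested genes, 6.79%, 15.1% and 2.61% were called in OA vs MDI, OA_T0 vs OA and OA_T0 vs MDI. At those shares so few genes can give 0 calls. With an unadjusted p below 0.05, Trim37 differed in OA_T0 vs OA and Tmem135 in OA_T0 vs MDI.

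**Figure D4:**
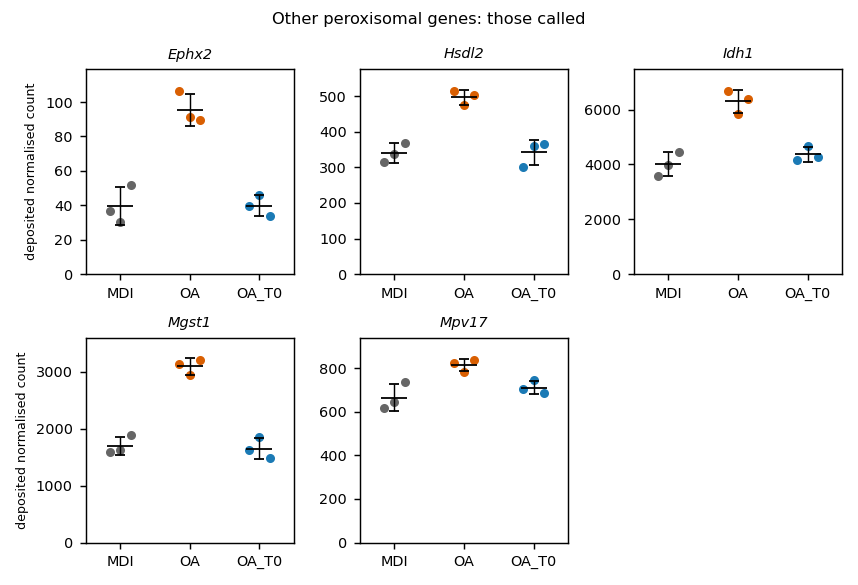
Deposited normalised counts of the 5 called genes of the second peroxisomal list; points are libraries, the horizontal mark the mean and the bar 1 SD (n = 3), with axes from 0. In Ephx2, Mgst1, Idh1 and Hsdl2 the 3 OA libraries stand apart from all MDI and OA_T0 libraries.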

How the data were processed

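The table holds 9 RNA-seq libraries with 1 signal value per gene, deposited by the authors as normalised counts; per the submitters' processing notes CASAVA 1.8.2, TopHat, HTSeq and DESeq2 were used on build mm9, with no role or order given. The values were not whole: between 5 and 50 steps of the smallest common value, 64.0% to 70.3% lay within 0.05 of a multiple, so whole reads were not recovered and no count test was run. The step gave the estimated depth. How counting treated strand, overlapping genes and shared reads is not given in the sources used here.

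Genes with a mean of at least 10 were tested as log2(value + 1) with limma 3.58.1 (R 4.3.3), two-sided, letting the variance follow the mean level and estimating it over all 9 libraries. The procedure was also run on simulated data with independent noise. That simulation held no offsets between libraries, so it does not cover the offsets seen here. Groups came from the sample titles. The alternatives were pseudocounts of 0.5 and 5, no filter or a mean of 50, quantile normalisation, equal totals, only the groups compared, a replicate block, robust variances, and leaving out each library, or OA replicate 1 with OA_T0 replicate 3. The members and lists were chosen with earlier results of these data known. Printed with library values were called members, up to the 8 of smallest adjusted p per comparison, and 6 fixed genes; Acox3, the ninth in OA_T0 vs OA, was added afterwards. Some genes of the second list are not reported here. Intervals and floors cover counting error or library spread only.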

Additional observations from a re-analysis of the deposited data

How the results depend on the processing

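Every member result kept its direction where it had been called, under all 19 alternatives; of the member results under alternatives, 2229 stayed on the same side of the threshold, 41 lost their call and 7 gained one. Members higher in OA vs MDI numbered 6, with 5 without a filter and 5 to 8 when 1 library was left out. Members lower in OA_T0 vs OA numbered 9, with 10 under quantile normalisation (Pex13 gained), 7 without a filter (Acox3 and Crot lost), 6 to 9 when 1 library was left out and 5 without both OA replicate 1 and OA_T0 replicate 3, the calls of Acox3, Far1, Crot and Acbd5 being lost there. Members higher in that comparison numbered 0, and 0 to 1 when 1 library was left out (Pex16 without OA replicate 3, Nudt19 without OA_T0 replicate 2). The 1 member higher in OA_T0 vs MDI, Pex19, became 0 without a filter, with equal totals, with the groups compared alone, with the replicate block, with robust variances and without both of those libraries, and 0 to 1 when 1 library was left out. The cause was not tested.

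Libraries with the same replicate number did not deviate together: 1 of 9 such correlations across genes was over 0.1, and they ran from -0.26 to 0.26. With the replicate block, 6 members were higher in OA vs MDI, 8 lower in OA_T0 vs OA (Acox3 was lost) and 0 called in OA_T0 vs MDI.

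Over all genes, the 514 higher and 504 lower in OA vs MDI became 233 and 234 without a filter, 221 and 301 without MDI replicate 1, 214 and 155 without MDI replicate 2, and 279 and 283 without OA replicate 1. The higher count was 324 without OA replicate 3 and the lower 317 without OA replicate 2. The 1240 higher and 1026 lower in OA_T0 vs OA became 682 and 524 without OA replicate 1, 755 and 633 with OA replicate 2 dropped, 580 and 474 with OA_T0 replicate 1 dropped, and 524 and 400 with both named libraries dropped, and 620 were lower without a filter. The 188 higher and 204 lower in OA_T0 vs MDI became 72 and 38 without a filter, 68 and 61 without MDI replicate 1, 70 and 52 without MDI replicate 2, and 66 and 45 without OA_T0 replicate 1. Robust variances gave 132 lower there, and 283 were higher without MDI replicate 3. Among the members, Pxmp2, Abcd2, Pex11g and Hacl1 had the largest standard errors of the log2 fold change.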
